A study of Mus musculus with 8 samples.

Results

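Glycolysis converts glucose to pyruvate in the cytosol, and the pyruvate is either reduced to lactate or oxidized in mitochondria. Hypoxia-inducible factor 1 (HIF-1), whose alpha subunit is encoded by Hif1a, is a transcription factor known for raising glucose transporters, glycolytic enzymes and kinases that keep pyruvate out of mitochondria. Its alpha subunit is controlled mainly by the stability of the protein, while in myeloid cells endotoxin is also known to raise the Hif1a transcript. Expression was followed for 10 genes of this system, of 55416 gene identifiers in the files: Hif1a, Slc2a1, Hk2, Hk3, Pfkfb3, Pfkp, Pkm, Ldha, Pgk1 and Pdk4. They were taken from a list of symbols that was chosen with earlier results of these data known. Each matched 1 Ensembl mouse gene and passed the expression filter.

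Lung RNA came from 3 control mice (numbers 1, 2 and 4), 3 mice given lipopolysaccharide (LPS; 1, 6 and 7) and 2 mice given LPS and YW3-56 (2 and 5), an inhibitor of protein arginine deiminases. The labels give the strain as C57BL/6, and the methods describe female C57BL/6J animals aged 6 to 8 weeks. The LPS dose was 35 mg/kg, the YW3-56 dose (injected shortly ahead of LPS) was 10 mg/kg, and tissue was collected about 24 h afterwards. In the study's survival experiment, median survival fell short of this time with LPS alone and exceeded it with YW3-56. The condition of the sampled mice is not given, so severity of illness and treatment cannot be told apart. Control mice received dimethyl sulfoxide and saline. The methods section names no vehicle injection for the LPS mice. Total counts per mouse ran from 19061949 to 20908608. The comparisons ask how endotoxin shock changed the lung transcriptome and how the inhibitor altered that change. No YW3-56 group without LPS was analysed here, so an effect of the compound alone cannot be told apart from an effect on the LPS response. Levels are given in CPM (counts relative to the TMM-scaled library size), and a gene was called when its edgeR adjusted p was under 0.05 over the 18560 genes tested.

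The labelled tissue was checked with lung epithelial and endothelial markers, and each of them had counts in all 8 mice. Sftpc of alveolar type 2 cells ran from 8322 to 24536 CPM and Scgb1a1 of airway club cells from 22675 to 65313 CPM. LPS mice 6 and 7 stood apart from the other 6 mice in 2 marker lists. The 10 skeletal muscle genes, led by Acta1, summed to 501 and 1288 CPM in these mice and to between 5.67 and 19.8 CPM in the others. The 10 squamous epithelium genes, led by Krt13, summed to 783 and 2097 CPM in the same mice and to between 1.60 and 28.4 CPM elsewhere. Myh2 was the lone muscle marker too low to be tested. Several genes that muscle also expresses are given with and without these 2 mice. That fit has 1 LPS mouse left, which is assumed to vary like the other groups, as is a lone dual-treated mouse wherever the other is left out.

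Because the 10 genes were chosen with earlier results of these data known, the counts of calls below are descriptive. All 10 genes were called higher in LPS than in control lungs, against 32.6% of all tested genes called higher and 33.9% called lower. Their median log2 fold change (log2FC) was 1.42, and that of all genes was -0.01. In each of the 10 genes every LPS mouse also lay above every control mouse, as it did in 34.7% of tested genes. In the dual treatment against control 4 genes were called higher (Hk3, Pkm, Ldha and Pgk1) and 0 lower by edgeR (0 also at an unadjusted p under 0.05 and by DESeq2), where 9.13% and 7.02% of all genes were called. This count of 4 was 7 without dual-treated mouse 5 or without a filter, and 6 without LPS mouse 1. The counts over all genes, 1695 higher and 1302 lower, were 790 and 430 without dual-treated mouse 2, and 973 to 1088 and 580 to 733 without any 1 control mouse. The median log2FC there was 0.69, against 0.0042 for all genes. Every dual-treated mouse lay above every control mouse in 8 of the 10 genes, the exceptions being Pfkp and Pdk4, and in 26.1% of all genes. In the dual treatment against LPS 6 genes were called lower (Hif1a, Slc2a1, Hk2, Pfkfb3, Pfkp and Pdk4), 1 was called higher (Hk3) and 3 were not called (Pkm, Ldha and Pgk1), where 27.4% of all genes were called lower and 31.7% higher. The median log2FC was -1.23, against 0.06 for all genes. Both dual-treated mice lay below every LPS mouse in those 6 genes and in 32.9% of all genes. The comparisons share mice, so their calls are not independent of each other. In bulk lung RNA, a change in the number of cells that express a gene and a change in the RNA per cell cannot be told apart.

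**Figure D1:**
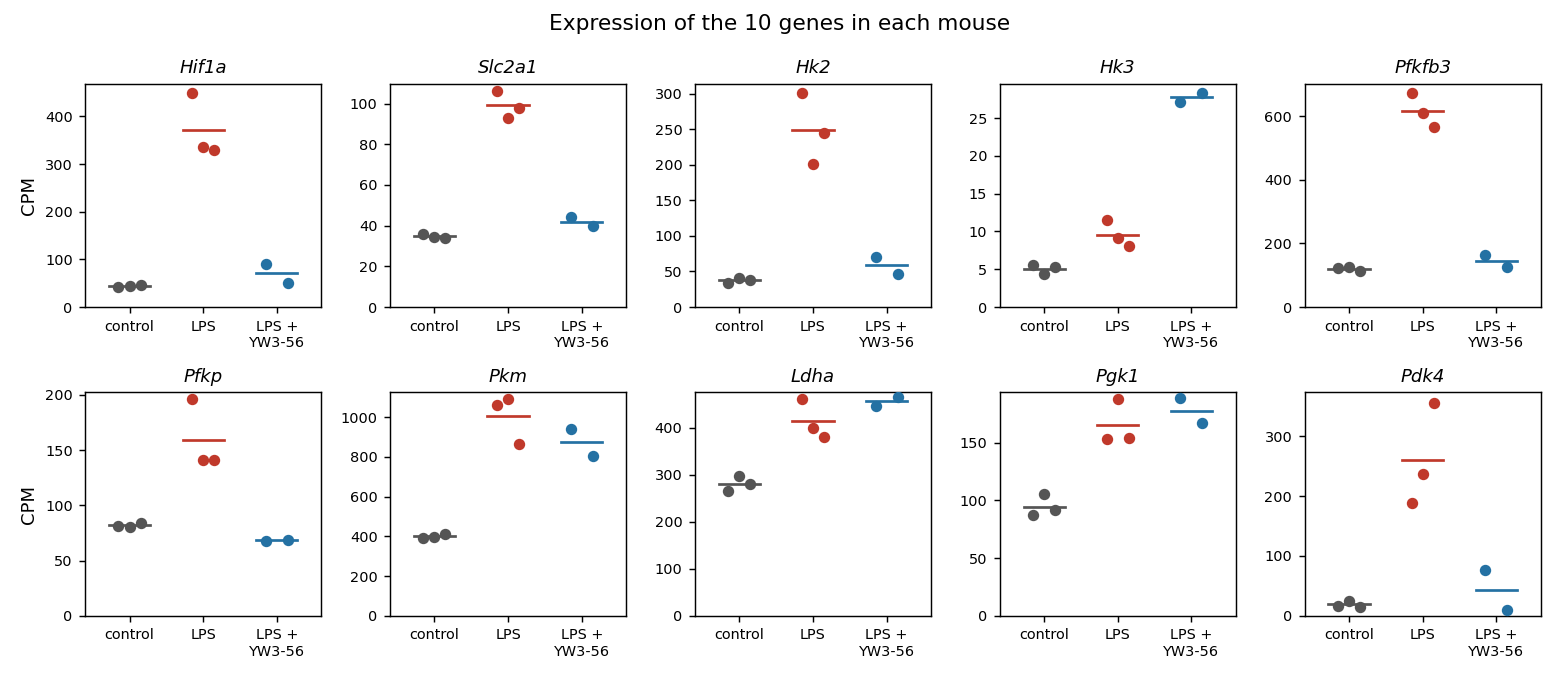
CPM of each of the 10 genes (vertical axes, linear from 0) in the 3 control, 3 LPS and 2 LPS plus YW3-56 mice; points are mice and bars are group means. Hif1a, Slc2a1, Hk2, Pfkfb3, Pfkp and Pdk4 were highest in the LPS mice, Hk3 was highest in the dual-treated mice, and Pkm, Ldha and Pgk1 overlapped between both treated groups.

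Hif1a (ENSMUSG00000021109, GRCm39 chr12:73948149-73996321, plus strand) was at 41.1, 44.5 and 46.4 CPM in the control mice. It was at 448, 336 and 329 CPM in the LPS mice, and at 90.2 and 51.3 CPM in the dual-treated mice. LPS mice were far above both other groups, and both dual-treated mice lay above the control range. The LPS difference was 8.43-fold (log2FC 3.08, SE 0.22, adjusted p = 2.78e-06, higher in 3 of 3 mice). Dual-treated lungs had a log2FC of -2.39 against LPS lungs (SE 0.24, adjusted p = 4.54e-05). Against control their log2FC was 0.69 (95% CI 0.19 to 1.18, adjusted p = 0.0657), and this missed the threshold. It was 0.19 without dual-treated mouse 2 and 1.01, a called value, without mouse 5. Over the alternatives its adjusted p ran from 0.00425 to 0.61, and it was also called with DESeq2 (0.67), with library sizes alone, with either other filter and without LPS mouse 1 (0.69).

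Slc2a1 (ENSMUSG00000028645, chr4:118965908-118996365, plus strand) encodes the glucose transporter GLUT1, which is also abundant in erythroid cells and endothelium. Its level was 35.9, 34.4 and 33.8 CPM in control mice, 106, 93.0 and 98.1 CPM in LPS mice, and 44.1 and 39.8 CPM in dual-treated mice. The groups did not overlap, with LPS highest. The LPS difference was a log2FC of 1.51 (SE 0.09, adjusted p = 1.37e-06), and that of the dual treatment against LPS was -1.24 (SE 0.10, adjusted p = 1.48e-05). Against control, the dual treatment had a log2FC of 0.28 that was not called (adjusted p = 0.0902). Leaving out dual-treated mouse 2 lowered it to 0.17, and leaving out mouse 5 gave 0.32, neither called. The levels of 8 erythroid genes, led by Hbb-bs, also differed between the groups. Their sum was 1738, 3920 and 2790 CPM in control mice, 3309, 1896 and 1483 CPM in LPS mice, and 428 and 383 CPM in dual-treated mice. Of the 8, 7 were called lower in the dual treatment against LPS and 5 in the dual treatment against control. In LPS against control 1 of the 8 was called higher (Slc4a1). Their part in the Slc2a1 values was not tested.

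Hexokinases phosphorylate glucose and so hold it in the cell. Hk2 (ENSMUSG00000000628, chr6:82699740-82751469, minus strand), the inducible form of muscle and many activated cells, was at 34.2, 41.2 and 37.8 CPM in control mice and at 301, 202 and 244 CPM in LPS mice. The dual-treated mice had 70.7 and 47.0 CPM, above the control mice and far below the LPS mice. The LPS difference was 6.60-fold (log2FC 2.72, SE 0.19, adjusted p = 2.89e-06), and the dual treatment against LPS had a log2FC of -2.08 (SE 0.22, adjusted p = 5.05e-05). Against control the dual treatment gave 0.64 (95% CI 0.19 to 1.09, adjusted p = 0.0595), short of the threshold. This value ranged from 0.29 without dual-treated mouse 2 to 0.88, a called value, without mouse 5, and its adjusted p from 0.0049 to 0.461 over the alternatives. It was also called with DESeq2 (0.62), with library sizes alone, with either other filter, in the 2-group fit, without LPS mouse 1 or 6 (0.64 in each) and without LPS mice 6 and 7 (0.64). Hk2 was highest in LPS mouse 1, where muscle genes were low, and without LPS mice 6 and 7 the LPS difference was 3.00.

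Hk3 (ENSMUSG00000025877, chr13:55153798-55169276, minus strand) is the hexokinase of myeloid cells. It was at 5.53, 4.32 and 5.33 CPM in control mice, 11.5, 9.12 and 8.09 CPM in LPS mice, and 27.2 and 28.4 CPM in dual-treated mice. The 3 groups were fully separated, and the order of the treated groups was the reverse of that for Hk2. The log2FC was 0.92 in LPS against control (SE 0.17, adjusted p = 0.00118), 2.46 in the dual treatment against control (SE 0.19, adjusted p = 7.46e-05) and 1.54 in the dual treatment against LPS (SE 0.18, adjusted p = 0.000102). The annotation places Unc5a over part of Hk3 on the opposite strand, at a mean of 5.08 CPM over the 8 mice, and the strand setting of the counting is not given in the sources used here. Of the 12 macrophage and monocyte genes, led by Chil3, 8 were called higher and 1 lower (Cd14) in the dual treatment against LPS. In LPS against control 3 were called higher and 4 lower, and in the dual treatment against control 8 higher and 1 lower (Mertk). Adgre1, a macrophage receptor, was between 12.1 and 16.9 CPM in control, between 7.98 and 16.1 CPM in LPS and at 42.2 and 70.7 CPM in dual-treated mice. The list summed to 1007, 757 and 969 CPM in control, 2046, 1817 and 1212 CPM in LPS and 1567 and 2159 CPM in dual-treated mice. Without Chil3 the sums were 412, 351 and 411 CPM, 1392, 1076 and 871 CPM, and 910 and 915 CPM in the same order. Of the 14 neutrophil genes, led by Lcn2, 14 were called higher in LPS and 9 in the dual treatment, each against control. Without Lcn2 they summed to 350, 277 and 199 CPM in control, 2824, 3704 and 2543 CPM in LPS, and 2099 and 2597 CPM in dual-treated mice. With Lcn2 the sums were 499, 383 and 352 CPM, 16875, 18204 and 12699 CPM, and 6571 and 3796 CPM. Of the neutrophil genes 4 were called higher (Csf3r, Cxcr2, Retnlg and Mmp8) and 6 lower in the dual treatment against LPS. The part of these cell types in the Hk3 values was not tested.

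Phosphofructokinase commits sugar to glycolysis, and PFKFB enzymes set its activator, fructose 2,6-bisphosphate. Pfkfb3 (ENSMUSG00000026773, chr2:11476244-11558888, minus strand) was at 122, 126 and 112 CPM in control mice and at 674, 609 and 565 CPM in LPS mice. It was at 164 and 127 CPM in the dual-treated mice, just above the control range. The LPS difference was 5.13-fold (log2FC 2.36, SE 0.13, adjusted p = 9.64e-07). The log2FC of the dual treatment was -2.08 against LPS (SE 0.15, adjusted p = 8.14e-06) and 0.28 against control, which was not called (95% CI -0.03 to 0.58, adjusted p = 0.214). The value against control rested on dual-treated mouse 2, being 0.05 without it and 0.42 without mouse 5, called in neither.

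Pfkp (ENSMUSG00000021196, chr13:6629798-6698970, minus strand), the platelet-type phosphofructokinase, was at 81.2, 80.5 and 84.1 CPM in control mice, 196, 141 and 141 CPM in LPS mice, and 68.2 and 68.8 CPM in dual-treated mice. Among the 10 genes it alone had both dual-treated mice below the control range. The share of all genes in this order was not counted, so the order is not read as particular to Pfkp. The log2FC was 0.96 in LPS against control (SE 0.13, adjusted p = 0.000151) and -1.22 in the dual treatment against LPS (SE 0.15, adjusted p = 0.000131). Between the dual treatment and control it was -0.26 and not called (adjusted p = 0.274). The annotation places Pitrm1 over part of Pfkp on the opposite strand, at a mean of 22.4 CPM.

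The remaining glycolytic enzymes act at later steps. Pgk1 (ENSMUSG00000062070, chrX:105230706-105247305, plus strand) encodes phosphoglycerate kinase, an ATP-yielding step. It was at 87.0, 105 and 91.5 CPM in control, 153, 188 and 154 CPM in LPS, and 188 and 167 CPM in dual-treated mice. Both treated groups lay above control and overlapped each other. The log2FC against control was 0.80 with LPS (SE 0.12, adjusted p = 0.000270) and 0.91 with the dual treatment (SE 0.13, adjusted p = 0.00204). The log2FC between the treated groups was 0.11 (95% CI -0.19 to 0.40, adjusted p = 0.510). It was -0.01 without dual-treated mouse 2 and 0.20 without LPS mouse 6, and with library sizes alone it was 0.43 and called, or 0.05 relative to the median of all genes.

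Pkm (ENSMUSG00000032294, chr9:59563364-59586663, plus strand) encodes pyruvate kinase; the counts do not separate its splice forms, and the annotated locus Gm49759 (mean 30.0 CPM) overlaps it on the same strand. It was at 391, 398 and 412 CPM in control, 1061, 1090 and 867 CPM in LPS, and 942 and 805 CPM in dual-treated mice. Both treated groups lay far above the control mice, and 1 dual-treated mouse lay inside the LPS range. The log2FC against control was 1.33 with LPS (SE 0.13, adjusted p = 1.48e-05) and 1.13 with the dual treatment (SE 0.14, adjusted p = 0.000805). Between the treated groups it was -0.20 (95% CI -0.52 to 0.11, adjusted p = 0.232), and 0.13 with library sizes alone (-0.26 relative to the median of all genes). It was -0.35 without dual-treated mouse 2, -0.12 without mouse 5 and -0.31 without LPS mouse 7 (adjusted p = 0.0524), called in none of them. Without LPS mice 6 and 7, the value for LPS against control was 1.41.

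Ldha (ENSMUSG00000063229, chr7:46490899-46505061, plus strand) encodes the lactate dehydrogenase subunit that favours lactate. It was at 265, 297 and 281 CPM in control, 462, 400 and 380 CPM in LPS, and 447 and 466 CPM in dual-treated mice. Both treated groups lay above control and overlapped. The log2FC against control was 0.56 with LPS (SE 0.11, adjusted p = 0.00143) and 0.70 with the dual treatment (SE 0.12, adjusted p = 0.00481), and between the treated groups it was 0.14 (95% CI -0.13 to 0.41, adjusted p = 0.336). The last value was 0.07 without LPS mouse 7, 0.22 without LPS mouse 1 and -0.02 without LPS mice 6 and 7, and with library sizes alone it was 0.47 and called, or 0.09 relative to the median of all genes. For Pkm, Ldha and Pgk1 these intervals bound the difference between the treated groups and do not show that the groups were equal. Ldha and Pgk1 have processed copies elsewhere in the genome. Copies annotated under their names held 0.174% and 0.271% of the reads of gene and copies together, on average. How reads mapping to several places were counted is not given in the sources used here, so the levels are uncertain.

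Pdk4 (ENSMUSG00000019577, chr6:5483097-5496339, minus strand) encodes a pyruvate dehydrogenase kinase, which holds pyruvate out of mitochondrial oxidation and is also known as a target of PPAR, FOXO and glucocorticoid signalling. It was at 16.9, 25.1 and 14.8 CPM in control and at 188, 237 and 356 CPM in LPS mice. The dual-treated mice split, with 76.6 CPM in mouse 2, above the control range, and 9.57 CPM in mouse 5, below it. The LPS difference was 13.8-fold (log2FC 3.78, SE 0.63, adjusted p = 0.000536). The dual treatment against LPS had a log2FC of -2.60 (SE 0.70, adjusted p = 0.010). The LPS difference was still called without LPS mice 6 and 7, at 3.32, while the difference between the treated groups was then -2.14 and no longer called (adjusted p = 0.0730). Against control the dual treatment gave 1.19 (95% CI -0.24 to 2.62, adjusted p = 0.245), which became -1.01 without mouse 2 and 1.99, a called value, without mouse 5. It was also called without a filter on low counts (1.18, adjusted p = 0.0249). Against LPS the value was -4.79 without mouse 2 and -1.79 without mouse 5, called in both. Adipocyte genes differed between the same mice: the 5 genes, led by Cidec, summed to 108 CPM in dual-treated mouse 2 and 18.7 CPM in mouse 5. The sums were 31.5, 128 and 33.9 CPM in control and 11.0, 34.0 and 48.1 CPM in LPS mice. Cardiac muscle genes, led by Myh6, summed to 431, 1190 and 677 CPM in control, 586, 901 and 530 CPM in LPS, and 248 and 246 CPM in dual-treated mice. Of the 5 adipocyte genes 1 was called in LPS against control (Plin1, lower), 0 in the dual treatment against control by edgeR (0 also at an unadjusted p under 0.05 and by DESeq2) and 1 in the dual treatment against LPS (Plin1, higher). Of the 8 cardiac genes 7 were called lower in the dual treatment against control and 6 against LPS. The part of either tissue in the Pdk4 values was not tested.

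**Figure D2:**
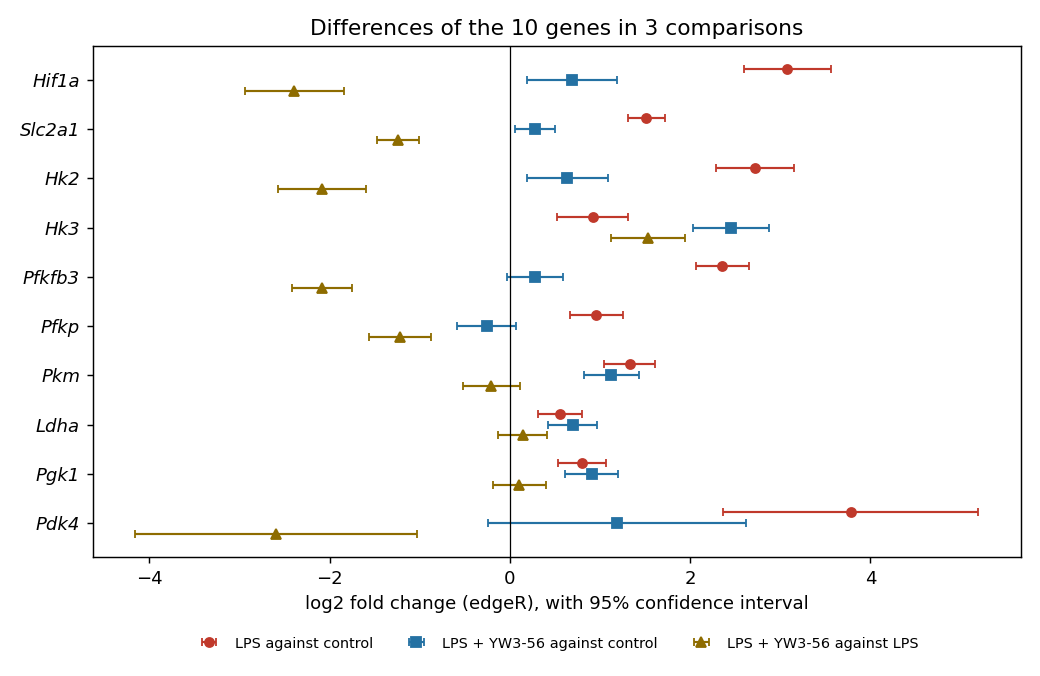
Log2 fold change from edgeR (horizontal axis) of each of the 10 genes in 3 comparisons, with 95% confidence intervals as bars (3 control, 3 LPS and 2 dual-treated mice). The intervals of LPS against control lie above 0 for all 10 genes, those of the dual treatment against LPS lie below 0 for 6 genes and above 0 for Hk3, and the intervals of Pdk4 are wide.

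Levels of different genes were compared as mean CPM per kb of exon, with the union of exons as length. In control lungs Ldha stood at 59.4, Pgk1 at 42.1, Pkm at 29.8 and Pfkfb3 at 14.9 CPM per kb, and the other 6 genes were between 1.04 (Hk3) and 7.39 (Slc2a1) CPM per kb. In LPS lungs Ldha was at 87.4, Pfkfb3 at 76.4, Pkm at 75.0, Pgk1 at 73.5 and Pdk4 at 68.6 CPM per kb, Hif1a at 44.5 and Hk2 at 30.1 CPM per kb. In dual-treated lungs Ldha was at 96.3, Pgk1 at 79.1 and Pkm at 65.1 CPM per kb, and the next was Pfkfb3 at 18.0 CPM per kb. These levels depend on the length used. With the canonical transcript, a choice made after seeing the data, Pkm was at 163 and Ldha at 177 CPM per kb in control lungs, and Pkm stood above Ldha in LPS lungs (411 and 261 CPM per kb) and in dual-treated lungs (357 and 287 CPM per kb).

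Within enzyme families, the share of each paralog in the summed CPM per kb does not depend on the scaling between mice. Exact permutation tests (2-sided) cannot go below p = 0.1 with these group sizes, so shares are given as values. Hk2 made up 25.6% ± 2.35 (SD, n = 3) of the total of Hk1, Hk2, Hk3 and Hkdc1 in control mice, 59.5% ± 2.04 (n = 3) with LPS and 26.0% ± 4.72 (n = 2) with the dual treatment. The share of Hk1, the widely expressed form, was 50%, 31.5% and 43.3% in the same order. Hk3 held 5.87% ± 0.750, 3.94% ± 0.483 and 21.3% ± 2.88, so its share was higher in the dual-treated mice than in either other group. Hkdc1 held 18.4%, 5.08% and 9.41%. The total of these 4 genes was 17.8 ± 0.327, 50.5 ± 9.62 and 27.1 ± 2.86 CPM per kb.

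The phosphofructokinase total was 15.1 ± 0.651, 15.5 ± 1.21 and 14.4 ± 1.69 CPM per kb in control, LPS and dual-treated lungs with TMM scaling, and its makeup differed. Pfkp held 33.0% ± 1.17, 62.3% ± 8.03 and 29.0% ± 3.19, and Pfkl, the liver-type subunit, 45.6% ± 0.656, 23.4% ± 2.06 and 55.2% ± 1.71. Pfkm, the muscle-type subunit, held 21.4%, 14.3% and 15.8%. It was at 11.6 CPM in LPS mouse 1 and at 19.8 and 27.4 CPM in LPS mice 6 and 7. Its log2FC with LPS was -0.57 and not called over all mice, and -1.32, a called value, without these 2. Among PFKFB enzymes Pfkfb3 held 56.9% ± 4.21, 85.2% ± 1.85 and 63.1% ± 6.48. Pfkfb4 held 30.8%, 10.4% and 26.4%, Pfkfb2 10.2%, 3.84% and 8.50%, and Pfkfb1 2.16%, 0.636% and 2.02%.

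Of the Ldha and Ldhb total, Ldha held 62.9% ± 4.72 in control mice, 76.5% ± 2.55 with LPS and 79.1% ± 0.369 with the dual treatment, Ldhb making up the rest. The PFKFB total was 26.2, 89.6 and 28.5 CPM per kb, that of Ldha and Ldhb 95, 114 and 122, that of the pyruvate dehydrogenase kinases 16.3, 75.2 and 21.2 (29.3 and 13.1 in dual-treated mice 2 and 5), and that of 5 glucose transporters 15.8, 30.2 and 21.3 CPM per kb, in the same order of groups. Pdk4 held 30.2% ± 4.38 of the pyruvate dehydrogenase kinase total in control and 90.8% ± 2.26 in LPS lungs. In the dual-treated mice its share was 69.0% in mouse 2 and 19.3% in mouse 5. In control and LPS lungs Pdk2 held 38.3% and 2.62% of that total, Pdk1 21% and 3.10%, and Pdk3 10.5% and 3.44%. The dual-treated mice differed here too, with 12.9% in mouse 2 and 32.8% in mouse 5 for Pdk2, 11.3% and 32.2% for Pdk1, and 6.80% and 15.7% for Pdk3. Slc2a1 held 46.8% ± 3.65 of the glucose transporters in control mice, 70.0% ± 4.09 with LPS and 42.3% ± 7.06 with the dual treatment. Slc2a6, a transporter of macrophage lysosomes, held 6.55%, 9.38% and 23.6%, with 16.0% and 31.2% in the dual-treated mice. Slc2a8 held 22.7%, 5.74% and 18.6%, Slc2a3 11.5%, 9.86% and 10.4%, and Slc2a4 12.4%, 5.06% and 5.0%. The share of Slc2a4, the transporter of muscle and fat, was 7.06%, 21.5% and 8.77% in the control mice (mean 7.91% without control mouse 2). It was 2.61% in LPS mouse 1 and 5.58% and 6.97% in LPS mice 6 and 7. Lengths mattered for the size of these shares: with the canonical transcript the share of Hk2 was 16.4%, 44.8% and 17.0% in control, LPS and dual-treated lungs, and that of Pfkp 39.7%, 69.1% and 34.7%. Other shares moved further, that of Pdk4 in control lungs being 12.6%, that of Pfkfb2 in control lungs 20.4%, and those of Pdk2 and Pdk3 in LPS lungs 8.26% and 9.65%. With these lengths Slc2a1 (30.4%) stood below Slc2a8 (32.6%) in control lungs.

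**Figure D3:**
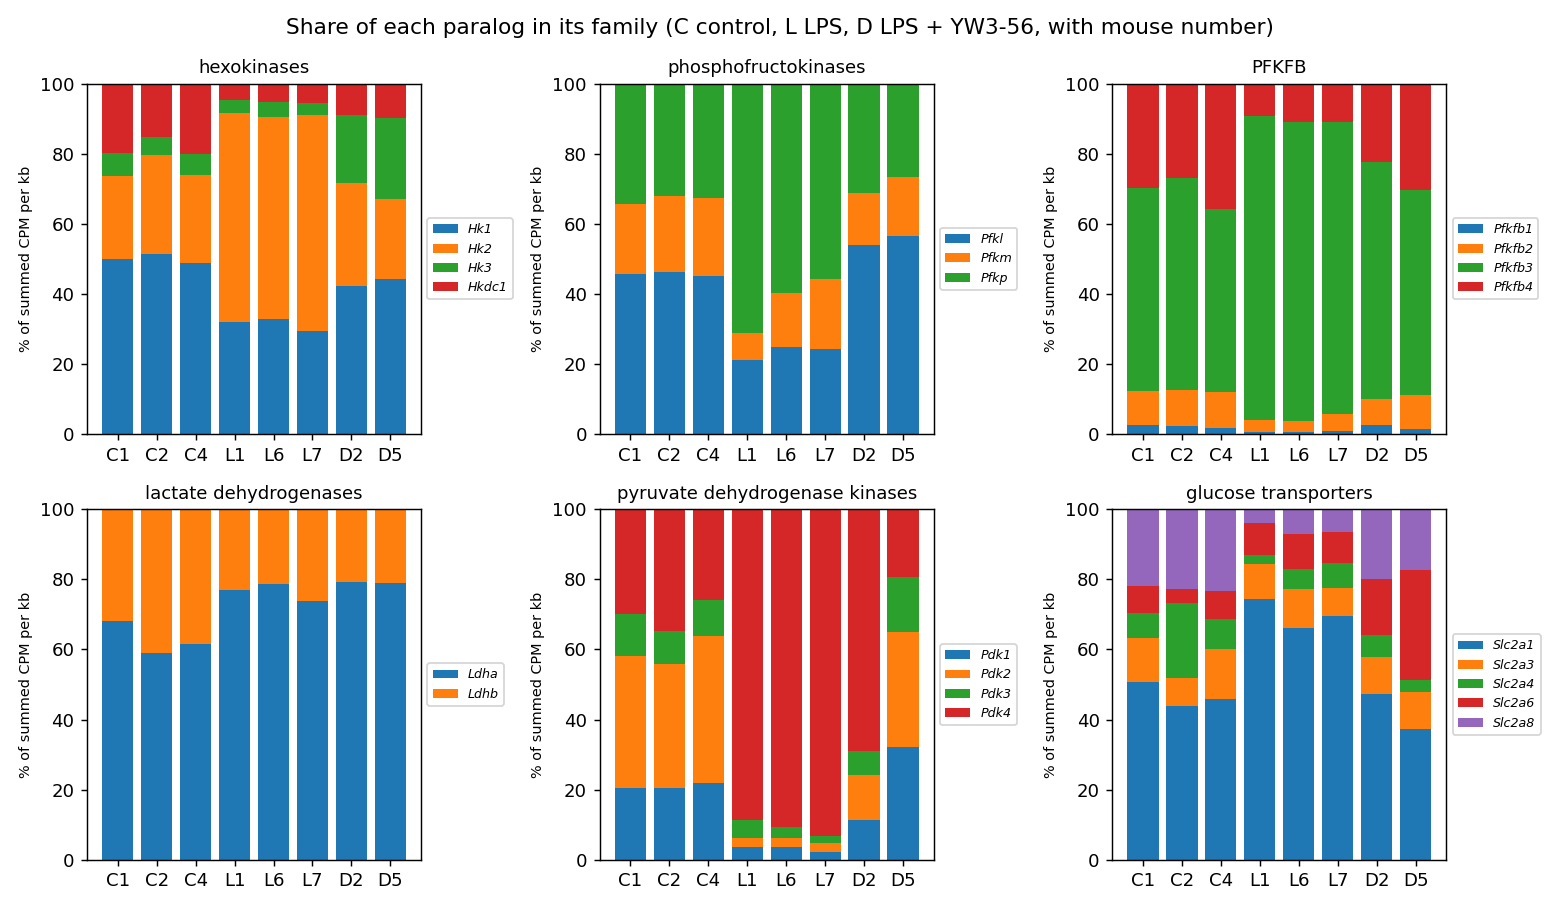
Share (%) of each paralog in the summed CPM per kb of its family (vertical axes, from 0 to 100), for each of the 8 mice (C control, L LPS, D LPS plus YW3-56, with the mouse number). Hk2, Pfkp, Pfkfb3, Pdk4 and Slc2a1 take larger shares in the LPS mice, Hk3 in the dual-treated mice, and D2 and D5 differ in Pdk4.

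The other genes of the system were taken in 9 lists of 125 genes, of which 122 were tested. With LPS 49 were called higher and 36 lower against control, with a median log2FC of 0.14. The dual treatment had 21 called higher and 10 lower against control (median -0.02), and 32 higher and 33 lower against LPS (median -0.08). The count of pathway genes lower against control rested on few mice, being 2 without dual-treated mouse 2, 5 to 6 without any 1 control mouse and 14 without LPS mouse 1, and it was 16 with DESeq2 and 6 with library sizes alone. The list medians that follow are to be set beside those of all genes given above (-0.01, 0.0042 and 0.06), as are the counts beside the shares of all genes called.

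Of 19 tested glycolytic enzymes outside the 10 genes, 7 were called higher and 2 lower in LPS against control, with a median log2FC of 0.06. The higher genes included Gapdh (1.40), glyceraldehyde phosphate dehydrogenase, and the lower genes were Pfkl (-0.94) and Aldoc (-0.82). The call of Aldoc was lost without control mouse 1 or 4 or LPS mouse 1 or 6 (-0.75 to -0.60). Its log2FC was -1.16 without LPS mouse 7 and -1.38 without LPS mice 6 and 7. Against control the dual treatment had 5 called higher (Eno1 at 1.37, Gapdh at 0.82, and Pgam1, Adpgk and Gpi1) and 2 lower (median 0.21). Both lower genes were unstable: Bpgm (-0.96), the erythroid bisphosphoglycerate mutase, was not called without dual-treated mouse 2 (-0.90), and Pgam2 (-0.88), the muscle form of phosphoglycerate mutase, was not called when any 1 control mouse, either dual-treated mouse or LPS mouse 6 was left out (-1.18 to -0.68). Against LPS 4 were higher (Pfkl at 1.15, Eno1 at 0.85, and Tpi1 and Adpgk) and 4 lower (Pgam2 at -2.06, Bpgm at -0.69, and Gapdh and Hk1), with a median of 0.0022. Bpgm was not called there without dual-treated mouse 2 (-0.63). Eno1, enolase, was at 118, 148 and 129 CPM in control, 178, 211 and 181 CPM in LPS, and 355 and 328 CPM in dual-treated mice, with both dual-treated mice above every LPS mouse, as for Hk3. Pgam2 was at 15.0 CPM in LPS mouse 1 and at 20.4 and 22.8 CPM in LPS mice 6 and 7. Without LPS mice 6 and 7 its log2FC with LPS was 0.81 in place of 1.18. Reads of Gapdh, Eno1, Pgam1, Aldoa and Tpi1 can also match processed copies, so their levels are uncertain. Of the 6 genes of fructose bisphosphate control, Fbp2 was called higher with LPS (2.40), but not without LPS mice 6 and 7 (1.53), 0 were called in the dual treatment against control by edgeR (0 also at an unadjusted p under 0.05 and by DESeq2), and Pfkfb2 was called lower against LPS (-0.51), but not without LPS mouse 7 (-0.34) or dual-treated mouse 2 (-0.40). The medians were 0.28, 0.06 and -0.41.

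Of 13 genes of glucose and lactate transport, 5 were called higher and 4 lower with LPS (median log2FC 0.07). Slc16a8, a lactate transporter, was at 4.15, 3.29 and 4.19 CPM in LPS mice and under 1 CPM in the other 5 (3.28 against control, -4.23 in the dual treatment against LPS). Slc2a6 was higher with LPS (1.46), while Slc2a8 (-1.05) and Slc2a9 (-0.88) were lower. Slc2a6 (2.32), Slc16a3 (1.94), which encodes a lactate exporter, and Slc2a9 (1.11) were the genes called by edgeR in the dual treatment against control, each higher (median -0.08). The log2FC of Slc2a6 in this comparison was 1.60 without dual-treated mouse 5 and 2.76 without mouse 2. Against LPS 3 were called higher (Slc2a9 at 1.98, Slc2a8 at 1.19, and Slc2a6) and 2 lower (Slc16a8 and Slc2a5), with a median of -0.05. The call of Slc2a6 there rested on dual-treated mouse 5, since its log2FC was 0.86 with and 0.14 without that mouse. It was also lost without control mouse 1 or 4 and without any 1 of the LPS mice (0.81 to 0.91).

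Of 13 genes of pyruvate entry into mitochondria, 6 were higher and 5 lower with LPS (median 0.22). Pcx, pyruvate carboxylase (1.44), and Dld, a subunit of pyruvate dehydrogenase (0.92), were higher, and Pdk2 (-1.65) and the phosphatase Pdp2 (-1.35) were lower. Pdp1 was the 1 gene called by edgeR in the dual treatment against control (-0.59, list median -0.07), and it was not called without control mouse 1 or 2 or dual-treated mouse 2 (-0.57 to -0.50). Against LPS 3 were higher (Pdk2 at 1.03, Pdp2 at 0.90, and Pdk1) and 6 lower, led by Pcx (-1.46) and Dld (-0.99), with a median of -0.22.

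Of 10 further genes of the HIF pathway, 3 were higher and 4 lower with LPS (median -0.01). Egln2, a prolyl hydroxylase that marks HIF alpha subunits for degradation, was at 111, 113 and 123 CPM in control, 541, 443 and 434 CPM in LPS, and 116 and 119 CPM in dual-treated mice. Its log2FC was 2.03 with LPS and -2.01 in the dual treatment against LPS. Arnt, the partner subunit of HIF alpha, was higher with LPS (0.80) and lower in the dual treatment than in LPS (-0.96). Epas1, which encodes HIF-2 alpha and is abundant in lung endothelium, went the other way: it was at 2671, 2797 and 2945 CPM in control, 1361, 1081 and 1332 CPM in LPS, and 2264 and 2958 CPM in dual-treated mice (-1.16 with LPS, 1.05 in the dual treatment against LPS). Of 5 endothelial markers, led by Cdh5, 3 were called lower with LPS and 3 higher in the dual treatment against LPS (Pecam1, Ptprb and Vwf in each). Cdh5 itself was called in neither comparison by edgeR. It was at 590, 659 and 737 CPM in control, 938, 657 and 642 CPM in LPS, and 510 and 590 CPM in dual-treated mice. Only LPS mouse 1 lay above the control range. In the dual treatment against LPS 0 of the 5 were called lower by edgeR, while 1 was lower at an unadjusted p under 0.05 and 1 by DESeq2. The 5 genes summed to 3382, 3755 and 3915 CPM in control, 2265, 1851 and 1869 CPM in LPS, and 2909 and 3315 CPM in dual-treated mice, and their part in the Epas1 values was not tested. Hif3a was lower with LPS (-1.12), but not called without control mouse 1 (-0.90) or LPS mouse 1 (-0.86), and higher in the dual treatment than in LPS (1.87, or 1.18 without dual-treated mouse 2 and 2.29 without mouse 5, called in both). Hif1an was the 1 gene called by edgeR in the dual treatment against control (-0.45, list median -0.13), and it was not called without any 1 control mouse or dual-treated mouse 2 (-0.48 to -0.30). Against LPS 2 were higher and 3 lower, with a median of -0.39.

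Of 25 tested HIF target genes, 11 were called higher and 9 lower with LPS (median 0.34), so these genes did not move in 1 direction. Ddit4, a stress-induced inhibitor of mTOR, was at 34.2, 34.4 and 33.5 CPM in control, 423, 433 and 341 CPM in LPS, and 88.0 and 59.0 CPM in dual-treated mice (3.55 with LPS). Car12, a carbonic anhydrase, was at 2.14, 5.72 and 9.77 CPM in LPS mice and at or under 0.61 CPM in the other 5 (3.89 with LPS, and 2.44 without LPS mice 6 and 7). The collagen-modifying enzymes Plod2 (-1.55) and P4ha1 (-1.41) were lower. Against control the dual treatment had 5 higher and 5 lower (median -0.09). Ankrd37 was called higher (2.23), with 6.99 and 25.2 CPM in the dual-treated mice against 2.99 to 3.72 CPM in control. Its log2FC was 0.999 without dual-treated mouse 5 and 2.85 without mouse 2, called in both. Plod2 (-1.08) and P4ha1 (-0.90) were lower there too. Against LPS 9 were higher and 8 lower (median -0.08). Car12 (-4.43, and -2.98 without LPS mice 6 and 7) and Adm, adrenomedullin (-2.77, and -3.42 without them), were lower, and Tfrc, the transferrin receptor (0.92), was higher. Ankrd37 was called higher there (1.62), but not without dual-treated mouse 5 (0.40) or without LPS mice 6 and 7 (1.49).

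Of 20 genes of fatty acid oxidation and PPAR or FOXO signalling, 11 were higher and 5 lower with LPS (median 0.38). Angptl4 (1.35) and Ucp3 (1.27) were called higher, but neither without LPS mice 6 and 7 (0.84 and -0.27). Ucp3 was at 3.38 CPM in LPS mouse 1 and at 9.53 and 16.7 CPM in the other LPS mice, and its call was also lost without any 1 control mouse (1.18 to 1.40), LPS mouse 6 (1.30) or LPS mouse 7 (0.67). Ppara (-1.83) and Acadm (-0.82) were lower. The value of Ppara was -2.89 without LPS mice 6 and 7, and -2.33 without LPS mouse 7 alone. Plin2 (0.90), Ucp2 (0.80) and Cpt1a were higher in the dual treatment than in control, and Foxo3 (-0.48) was lower (median -0.0088). Plin2 was not called without control mouse 4 (0.89) or dual-treated mouse 2 (0.53), nor Foxo3 without dual-treated mouse 2 (-0.45). Against LPS Pparg (0.81) and Cpt2 (0.63) were higher and 5 were lower, led by Foxo1 (-1.41) and Ppard (-1.01), with a median of -0.16. Pparg was not called without dual-treated mouse 2 (0.52) or without LPS mice 6 and 7 (0.68). Foxo1 was at 44.5, 44.4 and 42.8 CPM in control, 102, 87.1 and 97.3 CPM in LPS, and 37.7 and 34.0 CPM in dual-treated mice.

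Of 7 genes of the pentose phosphate pathway, which branches from glycolysis and yields NADPH, 3 were higher and 3 lower with LPS (median 0.07). Pgd (1.48) and Taldo1 (1.11) were higher, and Rpe (-1.37) and Rpia (-0.66) were lower. Rpia was not called without LPS mice 6 and 7 (-0.38). The genes called by edgeR in the dual treatment against control, each higher, were 4 (median 0.41), namely G6pdx, the first enzyme of the pathway (0.88), Taldo1 (0.64), Pgls and Pgd. Pgd was not called there without any 1 control mouse or any 1 dual-treated mouse (0.35 to 0.44). Against LPS 4 were higher (Rpe at 1.30, Pgls at 1.02, and Rpia and G6pdx) and 2 lower (Pgd at -1.07 and Taldo1 at -0.48), with a median of 0.47. Rpia was not called there without dual-treated mouse 5 (0.40) or without LPS mice 6 and 7 (0.39). Of 9 glycogen genes, 2 were higher and 4 lower with LPS (median 0.10). Pygm, the muscle glycogen phosphorylase, was at 12.1, 21.4 and 20 CPM in control, 52.5, 68.4 and 118 CPM in LPS, and 8.03 and 9.26 CPM in dual-treated mice. Its log2FC was 2.16 with LPS and -3.20 in the dual treatment against LPS. Without LPS mice 6 and 7 these values were 1.56 and -2.61. Pgm2 was also higher with LPS (1.67) and lower in the dual treatment than in LPS (-1.32), while Pygb (-1.08) was lower with LPS. Pygl, the liver-type phosphorylase, was the 1 gene called by edgeR in the dual treatment against control (1.18, list median -0.0063). By edgeR 0 were called lower, but 2 (Pygm at -1.04 and Pygb at -0.36) had an unadjusted p under 0.05, and DESeq2 called 2 lower. Pygm was called lower there without LPS mouse 1, LPS mouse 7 or LPS mice 6 and 7 (-1.04, -1.04 and -1.05), and Pygb without LPS mouse 7 (-0.36) or dual-treated mouse 5 (-0.50). Against LPS 5 were higher, among them Pygl (1.08), and 2 lower (median 0.51).

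The remaining marker lists also differed between groups. The 5 alveolar type 2 genes, led by Sftpc, summed to 35137, 29229 and 36806 CPM in control, 25386, 17536 and 14095 CPM in LPS, and 17132 and 28126 CPM in dual-treated mice, with 4 of 5 called lower with LPS. The 4 alveolar type 1 genes, led by Ager, summed to 3653, 3424 and 3550 CPM, 3130, 2659 and 1800 CPM, and 1838 and 2455 CPM in the same order. Without Ager the sums were 1317, 1238 and 1212 CPM, 698, 648 and 504 CPM, and 859 and 1044 CPM. With LPS 2 of 4 were called lower (Rtkn2 and Aqp5). In the dual treatment 2 were called lower against control, and 2 higher and 1 lower against LPS. The 3 airway genes, led by Scgb1a1, summed to 29846, 37492 and 35017 CPM, 66449, 56405 and 54754 CPM, and 22910 and 25402 CPM, and all 3 were called higher with LPS and lower in the dual treatment than in LPS. The skeletal muscle list had 9 of 9 tested genes called higher with LPS, and 8 called lower in the dual treatment against LPS. The squamous list had 7 called higher and 1 lower (Ivl) with LPS, and 7 lower and 1 higher (Ivl) in the dual treatment against LPS. In the dual treatment against control both lists had 0 called by edgeR (0 also at an unadjusted p under 0.05 and by DESeq2). Their part in the 10 genes was not tested beyond the fits without LPS mice 6 and 7.

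Promoter windows from RefSeq (GRCm38.p6, 250 bases before to 50 bases after the start) were found for all 10 genes, in 13 windows. The letters ACGTG and GCGTG, the core of the hypoxia response element, were searched on both strands. CACGTG holds ACGTG on both strands and counts as 2 matches. At least 1 match was present in 12 of 13 member windows (92.3%) and in 14380 of 32851 windows of all genes (43.8%). The 10 genes were listed for their link to glycolysis and hypoxia, and the windows of all genes were not matched for base composition. The difference between these shares is therefore descriptive. ACGTG was present in 19.6% and GCGTG in 32.4% of all windows, counted separately. The first window of Pkm held neither, and its second held 2. The first window of Ldha held the most matches, 7. All 10 genes had a match in at least 1 window, so the presence of a match could not separate the expression patterns. There was 1 match for Hk3 and for Pdk4, 3 for Hif1a, 2 each for Slc2a1, Hk2 and Pgk1, and 4 for Pfkp. Pfkfb3 held 1 in its first and 4 in its second window, and the second window of Ldha held 2. A match is a run of letters, and binding was not measured. Windows are shown for 2 genes that were lower in the dual treatment than in LPS (Hk2 and Pfkfb3), 2 that stayed above control (Ldha and Pgk1) and the 1 that was called higher in the dual treatment than in LPS (Hk3), written 5′ to 3′ on the strand of the gene, with matches on either strand in capitals. They lie at chr6:82774405-82774704 (minus strand), chr2:11502041-11502340 (minus), chr7:46845554-46845853 (plus), chrX:106186850-106187149 (plus) and chr13:55021336-55021635 (minus).
Hk2: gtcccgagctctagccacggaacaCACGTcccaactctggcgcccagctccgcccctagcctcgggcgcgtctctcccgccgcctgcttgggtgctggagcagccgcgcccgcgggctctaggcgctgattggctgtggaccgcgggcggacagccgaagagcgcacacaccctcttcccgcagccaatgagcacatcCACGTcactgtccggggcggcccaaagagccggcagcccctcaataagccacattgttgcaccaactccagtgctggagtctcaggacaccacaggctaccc
Pfkfb3 (second window): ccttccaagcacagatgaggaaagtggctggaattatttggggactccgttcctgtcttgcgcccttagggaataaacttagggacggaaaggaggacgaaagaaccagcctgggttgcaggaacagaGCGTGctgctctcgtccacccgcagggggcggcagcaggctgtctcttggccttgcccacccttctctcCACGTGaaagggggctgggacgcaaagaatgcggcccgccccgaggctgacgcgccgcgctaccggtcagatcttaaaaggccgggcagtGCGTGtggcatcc
Ldha (first window): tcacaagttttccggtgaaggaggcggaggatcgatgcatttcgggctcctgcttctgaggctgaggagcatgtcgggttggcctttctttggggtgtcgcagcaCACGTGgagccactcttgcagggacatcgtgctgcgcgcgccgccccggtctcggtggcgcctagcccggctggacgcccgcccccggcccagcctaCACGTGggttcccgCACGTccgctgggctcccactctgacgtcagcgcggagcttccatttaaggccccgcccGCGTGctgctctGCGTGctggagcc
Pgk1: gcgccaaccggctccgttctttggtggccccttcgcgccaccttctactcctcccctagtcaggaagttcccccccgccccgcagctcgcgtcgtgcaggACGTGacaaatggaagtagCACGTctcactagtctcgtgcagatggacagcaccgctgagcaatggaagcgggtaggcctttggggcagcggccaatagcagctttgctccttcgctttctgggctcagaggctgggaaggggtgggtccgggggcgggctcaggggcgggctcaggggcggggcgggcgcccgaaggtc
Hk3: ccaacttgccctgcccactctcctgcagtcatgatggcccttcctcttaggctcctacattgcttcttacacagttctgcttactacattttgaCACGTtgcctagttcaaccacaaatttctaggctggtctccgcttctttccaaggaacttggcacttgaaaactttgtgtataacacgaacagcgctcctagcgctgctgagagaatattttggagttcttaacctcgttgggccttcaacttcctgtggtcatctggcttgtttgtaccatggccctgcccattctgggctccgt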

How the data were processed

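Lung RNA-seq libraries of 8 mice were analysed from the raw counts per gene that the authors deposited without normalization. Per the submitters' processing notes, reads were checked with FastQC 0.11.9, trimmed with Trim Galore, aligned to GRCm39 with HISAT2 2.2.1 and counted with featureCounts 2.0.1. Groups came from the labels. Of 55416 identifiers 54749 matched GENCODE M39, and the other 667 held 0.0533% of counts. Counts were fitted in R 4.3.3 with edgeR 4.0.16 (TMM, filterByExpr by group, quasi-likelihood test, 1 factor for the 3 groups over 8 libraries, 5 residual degrees of freedom), with Benjamini-Hochberg adjustment over 18560 genes. SE was taken from log2FC and its F statistic. The procedure was tested on simulated data, where a first criterion on the share of changes recovered was not met and was replaced by criteria on expected power and calibration. A gene not called in the dual treatment may still differ. No pair of libraries of a group agreed within sampling noise (chi-square per degree of freedom at least 8.08). The p-values set each difference against a spread between mice that was estimated over all 3 groups together. The dual treatment has 2 mice, so that spread comes mostly from the other groups. TMM factors were 1.06 to 1.08 in control, 0.810 to 0.930 in LPS and 1.09 to 1.11 in dual-treated mice. Strand setting, annotation release and handling of multi-mapping reads are not given in the sources used here. DESeq2 1.42.0, other scalings, filters and call rules, fits of 2 groups, and leaving out mice were alternatives. Of each pathway list, with a mean of at least 1 CPM, up to 2 called genes with the largest positive and 2 with the largest negative log2FC per comparison were selected, and most of these are given, besides the 10 genes and 6 enzyme families. The hexokinase family was taken as Hk1, Hk2, Hk3 and Hkdc1, a set settled after values were seen. Other genes named were chosen after their values were seen. Canonical transcript lengths were an alternative chosen after seeing the data. The members and lists were chosen with earlier results of these data known.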

Additional observations from a re-analysis of the deposited data

How the results depend on the processing

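With DESeq2, 28 of 30 results of the 10 genes (10 genes in 3 comparisons) kept their direction and side of the threshold and 2 gained a call, and 83 of 83 results of pathway genes picked by the naming rule were kept. RLE size factors kept 30 of 30 and 83 of 83. The number of pathway genes lower in the dual treatment against control was 16 with DESeq2. Without a filter on low counts 7 of the 10 genes were called higher in the dual treatment against control, and 27 of 30 results kept their call.

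With library size only, the median log2FC of all genes was -0.29 in LPS against control, 0.04 in the dual treatment against control and 0.38 in the dual treatment against LPS. The share higher among called genes was then 35.6% in place of 49.0%, 63.8% in place of 56.6% and 71.0% in place of 53.6%. All genes lower in the dual treatment against LPS were 3225, pathway genes lower in the dual treatment against control were 6, members higher in the dual treatment against LPS were 3 (Hk3, Ldha and Pgk1), and the log2FC of Pkm in the dual treatment against LPS was 0.13. The scaling itself moved the median here. Of the 30 results of the 10 genes 25 were kept, 4 gained a call and 1 reversed, and of the 83 pathway results 77 were kept and 6 lost their call: Pgam2 and Hif1an in the dual treatment against control, Bpgm, Pfkfb2 and Taldo1 in the dual treatment against LPS, and Ucp3 in LPS against control.

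Requiring a fold change over 2 beside the adjusted p left 6 members, 28 pathway genes and 3318 of all genes higher in LPS against control, and 14 pathway genes and 3961 of all genes lower. For the dual treatment against control it left 2 members, 9 pathway genes and 974 of all genes higher, and 1 pathway gene and 353 of all genes lower. For the dual treatment against LPS it left 10 pathway genes and 3666 of all genes higher, and 15 pathway genes and 2598 of all genes lower. A fold change over 2 with an unadjusted p under 0.05 gave 6 members, 28 pathway genes and 3401 of all genes higher and 14 and 4049 lower in LPS against control. It gave 2 members, 11 pathway genes and 1307 of all genes higher and 3 and 637 lower in the dual treatment against control. In the dual treatment against LPS it gave 10 pathway genes and 3826 of all genes higher and 15 and 2728 lower. These rules add a bound on the fold change.

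Leaving out 1 mouse at a time, members higher in the dual treatment against control ranged from 4 to 7, pathway genes lower there from 2 to 14, all genes higher there from 790 to 1946 and all genes lower there from 430 to 1655. The log2FC of Pdk4 in the dual treatment against control ranged from -1.01 to 1.99, and that of Pgk1 in the dual treatment against LPS from -0.0111 to 0.204. A lone dual-treated mouse is assumed to vary like the other groups. Without LPS mice 6 and 7 the log2FC of Ldha in the dual treatment against LPS was -0.0245 and that of Ucp3 in LPS against control was -0.27. The causes were not tested. Of 66 paralog shares 41 moved by more than 1 SD with canonical transcript lengths and 37 with counts not divided by length.

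Total counts were alike among the 8 mice. How far counting error, the spread between mice and their number, 2 in the dual treatment, each limit the calls was not tested. No paired analysis was possible, because the groups are different mice, and a mouse number found in more than 1 group does not mark a pair. Counts from bulk lung RNA give no cell type, protein, enzyme activity, lactate or oxygen level. The order of treatment, sampling and sequencing is not in the labels, so a batch and the groups cannot be told apart.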
